A study of Homo sapiens with 12 samples.

Results

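The HUTU-80 arrays are 4 of the 12 arrays of a study that put members of the miR-200 family of microRNAs back into 3 intestinal cancer lines. They were chosen by the cell line named in the sample titles. The 2 arrays titled miR200c141 1:3 and miR200c141 1:5 hold cells transduced with a lentivirus for the cluster of miR-200c and miR-141. The 1 array titled miR200ba429 holds cells transduced with a lentivirus for the other cluster (miR-200b with miR-200a and miR-429). The remaining array is titled control, 1 array. Transduced cells were sorted for GFP after 48 hours, and RNA was extracted 7 days after transduction. The sources used here leave unsaid what 1:3 and 1:5 stand for, what the control cells received and whether any arrays come from separate cultures. The p-values therefore measure only the spread between these arrays, which may be technical. Where both constructs are joined, against the control or between lines, that spread also holds the gap between the constructs. For the same change, a larger gap there gives a larger p-value. No array of HUTU-80 with both clusters was analysed here. A single control array enters every change against control, so an error in its value for a gene shifts all 3 construct arrays the same way and cannot be told apart from a shared response.

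The labels call HUTU-80 a colorectal cancer line with methylated miR-200 loci. As background, the line is known to come from a duodenal carcinoma. Defining markers of intestinal epithelium (CDX1, CDX2, VIL1, CDH17 and LGALS4) were at background on every HUTU-80 array, 0 of 5 on each, with levels between 2.97 and 3.99. Levels are log2 intensities throughout, and a gene is called above background when it exceeds 5.43, the brightest of 23 control probe sets that should bind nothing specific. The mesenchymal markers VIM, CDH2 and ZEB1 were above background on all 4 arrays (3 of 3). Of 5 epithelial markers, 4, 4 and 3 were above background on the miR200c141 1:3, miR200c141 1:5 and miR200ba429 arrays, against 1 of 5, KRT8, on the control. Immune markers (0 of 3 measured) and endothelial markers (0 of 3) were at background on all 4 arrays. Each array holds RNA of a whole culture, so fewer cells expressing a gene and less RNA per cell cannot be told apart.

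MicroRNAs of the miR-200 family bind messenger RNAs through their seed, the bases from position 2 to 8, and lower their abundance or translation. Their best known targets are ZEB1 and ZEB2, transcription factors that bind the E-box CACCTG and repress epithelial genes such as CDH1. ZEB1 and ZEB2 in turn repress the miR-200 clusters, so that epithelial cells usually hold high miR-200 and low ZEB1, and mesenchymal cells the reverse.

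The mature sequences of the 5 family members are shown because the constructs differ in which of them they carry. They are the RefSeq sequences on GRCh38.p14, and capitals mark the seed. The miR200c141 construct is named for the first pair, and the miR200ba429 construct for the other members.
hsa-miR-200c-3p: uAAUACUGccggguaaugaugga
hsa-miR-141-3p: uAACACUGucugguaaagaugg
hsa-miR-200b-3p: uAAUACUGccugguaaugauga
hsa-miR-200a-3p: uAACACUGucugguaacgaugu
hsa-miR-429: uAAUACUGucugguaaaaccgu
The first pair lies within chr12:6963742-6963764 and chr12:6964155-6964176, and the other members at chr1:1167160-1167181, chr1:1167916-1167937 and chr1:1169055-1169076, all on the plus strand. There are 2 seeds, AAUACUG and AACACUG, and going from the first to the second is the substitution U4C, with positions counted from 1 at the 5′ end. Seed AAUACUG is shared by miR-200c-3p, miR-200b-3p and miR-429 (3 members), and seed AACACUG by miR-141-3p and miR-200a-3p (2 members). Each cluster carries both seeds, 1 member of each in miR200c141, and 2 and 1 in miR200ba429. Over 22 aligned positions, miR-200c-3p and miR-200b-3p are identical at 20, and so are miR-141-3p and miR-200a-3p. The arrays do not measure mature microRNAs, so the level of each microRNA in the cells is not known here.

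The authors' normalization with RMA brings the distributions of arrays together, so like medians and like counts above background say little of quality. The 4 arrays were alike on these measures. Their median levels lay between 3.595 and 3.621, and 9206, 9263 and 9333 genes were above background with the miR200c141 1:3, miR200c141 1:5 and miR200ba429 constructs, against 9249 in the control. For ACTB, 3′ minus 5′ probe set level, a sign of RNA quality, was 2.15, 2.39 and 2.10 on the construct arrays in that order, against 2.22 on the control. Across 19774 genes, the construct arrays differed from the control with a standard deviation of 0.32 to 0.37 on the log2 scale. The miR200c141 arrays differed from each other by 0.28, and from the miR200ba429 array by 0.31 and 0.30. These spreads are across genes within pairs of arrays, and genes are not replicates.

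The first comparison asks what both clusters did in common in this line. With any construct, HUTU-80 cells had more RNA of EPCAM, of other cell junction genes (5 of 27 measured, EPCAM included), of epithelial vesicle and lipid genes (4 of 17) and of the keratin KRT8. They had less RNA of ZEB1, CHAC1, EPYC and DDIT4. In the limma fit of the 3 construct arrays against the control, 59 genes passed at an adjusted p under 0.05, which is 0.298% of the 19774 tested. Of these, 46 rose (0.233%) and 13 fell (0.0657%). Without a fit, 54 genes were higher by at least 1 log2 unit on all 3 construct arrays and above background on each of them (0.273%). Another 19 were lower by as much on all 3 and above background in the control (0.0961%). Genes such as CDH1 and OVOL2, with a construct array under background, are not among the 54. The fit called 34 of these 54 and 8 of these 19. In 34 of the 54, the control was at background, so for them only a lower bound of the change is measured. Values close to the limit show that it has no natural place. B3GNT5 and CYP24A1 were just inside with smallest changes of 1 and 1.00, and BHLHA15 and BICDL1 just outside with 0.996 and 0.99. Among the falls, FGF14 was just inside with a smallest change of 1.015 in size and UBALD2 just outside with 0.946.

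The calls of the fit are sensitive to how it was built, in both directions. Testing only genes above background gave 102 calls, averaging the miR200c141 pair gave 82 rises and 51 falls, and leaving out 1 construct array gave 77 to 264 calls. With the mean of all probe sets per gene in place of the brightest one, 10 genes passed, and with no trend of variance on level 2 genes passed. EPCAM and KRT8 then both had an adjusted p of 0.0619. With the mean of probe sets EPCAM passed (adjusted p = 0.0211), while KRT8 (1.14, adjusted p = 0.1337) and ZEB1 (−1.26, adjusted p = 0.168) did not. With 1 control array and 2 residual degrees of freedom, 1714 genes had an unadjusted p under 0.05, where 989 would be reached if no gene changed.

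**Figure D1:**
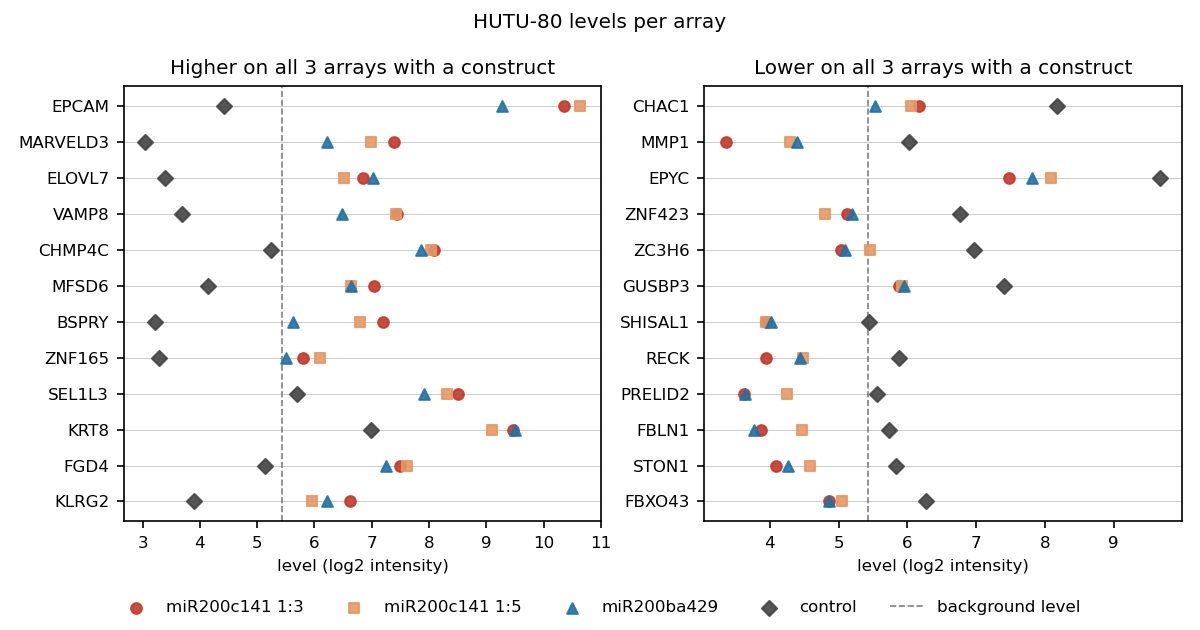
Levels (x axis, log2 intensity) on each of the 4 HUTU-80 arrays of the 12 genes with the largest shared rise (left) and the 12 with the largest shared fall (right), ranked by the smallest of the 3 changes among genes above background on all 3 construct arrays (rises) or in the control (falls). Points are single arrays and the dashed line is the background level of 5.43; the construct arrays lie apart from the control for every gene shown, as the choice of these genes requires, and for most rises the control lies under background.

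EPCAM, a homophilic adhesion molecule of epithelial cells, was the gene that rose most. Its level was 10.36 and 10.63 on the miR200c141 1:3 and 1:5 arrays and 9.28 on the miR200ba429 array, against 4.42 on the control, which is under background. The fitted rise was 5.67 ± 0.38 on the log2 scale (SE, limma adjusted p = 0.000191), and counted from background it was at least 25.3-fold. All 3 construct arrays lay far above the control, and the miR200ba429 array was the lowest of them. EPCAM is represented by 1 probe set on this array design.

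Cell junction genes, which hold epithelial sheets together, were taken as a list of 30, of which 27 were measured and 15 were above background on at least 1 HUTU-80 array. Of the 27, 5 rose and 0 fell, the median change was 0.30 against 0.01 over all genes, and 23 changes were positive. Over all 19774 genes, 10214 changes were positive. The median and the count of signs include members at background on all 4 arrays. CDH1, which encodes E-cadherin, read 6.01 and 5.84 with miR200c141 and 5.30 with miR200ba429, against 3.197 in the control, so that only the miR200c141 arrays were above background. Its fitted change was 2.52 ± 0.34 (limma adjusted p = 0.0111), while the bound counted from background was 1.22-fold. A second CDH1 probe set was at background on all 4 arrays, between 3.29 and 3.40, and showed no rise. MARVELD3, a tight junction protein, rose to 7.40 and 6.98 with miR200c141 and 6.21 with miR200ba429, against 3.05 in the control, a change of 3.81 ± 0.39 (adjusted p = 0.0023) and at least 2.70-fold. A further MARVELD3 probe set above background showed a smaller change of 1.77. LLGL2, a basolateral polarity protein, rose by 1.66 ± 0.24 to 6.63 to 6.87 on the construct arrays, against 5.10 in the control (adjusted p = 0.0147). With the probe set that is brightest over the HUTU-80 arrays alone, LLGL2 changed by 1.43 and no longer passed (adjusted p = 0.0702). CXADR, a tight junction adhesion protein and virus receptor, was already high at 9.79 in the control and read 10.76, 10.59 and 10.69 on the construct arrays, a rise of 0.89 ± 0.11 (adjusted p = 0.0079).

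The junction genes did not move as a block. CLDN1, TJP1, DSP, DSG2 and DSC2 were expressed in the control at 10.46 to 11.59, and their fitted changes of 0.06 to 0.38 did not pass. CLDN3, CLDN4, CLDN7 and CRB3, claudins and a polarity protein typical of simple epithelia, were at background on all 4 arrays. PATJ and LSR came close to the limit, with changes of 0.98 and 0.99 and an adjusted p of 0.1047 for each.

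Epithelial vesicle traffic and lipid genes form a list of 17, all measured, of which 7 were above background on some array and 2 in the control. Of the 17, 4 rose and 0 fell, and their median change of 0.77 was the highest of the 14 lists examined, beside 0.01 for all genes. That median includes members at background on all 4 arrays, and the lists were chosen with earlier results of these data known. VAMP8, a SNARE protein of endosomes and secretory granules, was at 7.45 and 7.43 with miR200c141 and 6.48 with miR200ba429, against 3.70 in the control. The rise was 3.42 ± 0.36 (limma adjusted p = 0.0028) and at least 3.22-fold. ELOVL7, an elongase of long-chain fatty acids, was at 6.85, 6.52 and 7.03 on the construct arrays, against 3.39 in the control, a rise of 3.41 ± 0.28 (adjusted p = 0.000538) and at least 2.59-fold. CDS1, which makes the phospholipid precursor CDP-diacylglycerol, read 7.45, 7.37 and 6.77, against 5.00 in the control, a rise of 2.20 ± 0.28 (adjusted p = 0.0094) and at least 3.40-fold. TMC4, a channel-like membrane protein, rose by 2.09 ± 0.30 (adjusted p = 0.0139) to levels just above background, 5.51 to 5.86 against 3.54 in the control, at least 1.15-fold. TMEM30B, a subunit of phospholipid flippases, was higher by 1.44 to 1.62 on all 3 construct arrays but did not pass (adjusted p = 0.0555). RAB25, MAL2 and AP1M2, other epithelial traffic genes, were at background on all 4 arrays.

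Keratins and surface proteases gave 1 rise among 15 measured of 17, and a median change of 0.00. KRT8, a keratin of simple epithelia, was at 9.46, 9.11 and 9.50 on the construct arrays, against 6.98 in the control, where it was already above background. The rise of 2.37 ± 0.17 (limma adjusted p = 0.000191), or 5.17-fold, was thus measured on both sides. Its usual partner KRT18 read 5.997, 5.86 and 5.47, against 4.38 in the control, a change of 1.39 ± 0.31 that did not pass (adjusted p = 0.1092). The probe sets of both keratins include probes that can also match related transcripts, and both genes have many near-identical pseudogenes, so these levels are less certain. KRT19, KRT7, ST14 and PRSS8 were at background throughout.

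Epithelial transcription and splicing factors gave 0 rises and 0 falls among 11 measured of 12, and 3 were above background on some array. GRHL2, ELF3, EHF and ESRP1 were at background on all 4 arrays. ESRP1, which directs epithelial splicing, read 3.28, 3.14 and 3.08 on the construct arrays, against 3.03 in the control. OVOL2, a repressor of mesenchymal genes, changed by 2.48 ± 0.54 (adjusted p = 0.1086). The gap between the constructs for OVOL2, described further on, enters this SE. KLF5 changed by 0.66 ± 0.31 (adjusted p = 0.6041).

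Further genes rose outside these lists and follow from the rule of the largest shared changes. CHMP4C, a subunit of the ESCRT-III membrane scission complex, read 8.09, 8.04 and 7.87 on the construct arrays, against 5.24 in the control (2.76 ± 0.19, limma adjusted p = 0.000191, at least 5.94-fold). SEL1L3 was at 8.50, 8.32 and 7.91, against 5.70 in the control, a rise of 2.55 ± 0.23 (adjusted p = 0.000948) or 5.85-fold. FGD4, an exchange factor that activates CDC42, rose by 2.32 ± 0.23 (adjusted p = 0.0019), MFSD6, a transporter-like membrane protein, by 2.63 ± 0.27 (adjusted p = 0.0023), and KLRG2 by 2.37 ± 0.31 (adjusted p = 0.0103). As lower bounds from background these are at least 4.07-fold, 2.55-fold and 1.78-fold. BSPRY, a B-box and SPRY domain protein, rose by 3.32 ± 0.48 (adjusted p = 0.0147) and ZNF165, a zinc finger protein, by 2.52 ± 0.32 (adjusted p = 0.0079), at least 2.16-fold and 1.30-fold. All but SEL1L3 of these had a control at background. For BSPRY, FGD4 and KLRG2, a second probe set above background gave smaller rises of 2.10, 1.32 and 1.48.

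ZEB1 was the only one of 9 measured EMT transcription factors that changed in the fit. It read 7.93 and 7.99 with miR200c141 and 8.75 with miR200ba429, against 9.87 in the control, a fall of 1.65 ± 0.26 on the log2 scale (limma adjusted p = 0.0263), or 3.14-fold. All 3 construct arrays were under the control and all 4 arrays were above background, so ZEB1 RNA was reduced but still present. ZEB2 read 3.48, 4.46 and 4.41 on the construct arrays, against 5.11 in the control, all under background, so no change of ZEB2 was measured. TCF4, at 10.9 to 11.3 on all arrays, changed by −0.37 (adjusted p = 0.2029). SNAI1, SNAI2, TWIST1, TWIST2, PRRX1 and FOXC2 were at background on all 4 arrays.

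Reported miR-200 targets other than ZEB1 and ZEB2 were followed as a list of 45, of which 41 were measured and 34 were above background. None rose or fell in the fit (limma, 0 of 41). Their median change was −0.18 against 0.01 over all genes, and 27 of the 41 changes were negative, beside 9560 of all 19774 genes. With the mean of all probe sets that median was −0.10. RECK, a membrane-anchored inhibitor of matrix metalloproteinases, read 3.94, 4.48 and 4.44 on the construct arrays, against 5.88 in the control, with only the control above background, and did not pass (adjusted p = 0.0829). PPM1F, a phosphatase that acts on cytoskeletal kinases, changed by −0.88 (adjusted p = 0.1861), MARCKS, an actin-binding protein, by −0.83 (0.1047) and CFL2, an actin-severing protein, by −0.60 (adjusted p = 0.175). QKI, an RNA-binding regulator of splicing, read 10.30, 10.50 and 10.62, against 10.998 in the control, a change of −0.52 (adjusted p = 0.1747). JAG1, a Notch ligand on the same list, was higher on all 3 construct arrays, by 0.83 (adjusted p = 0.1047). PPM1F, MARCKS, CFL2, QKI and JAG1 were picked after their values were seen.

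CHAC1, an enzyme that degrades glutathione and a target of the stress factor ATF4, fell furthest. It read 6.17, 6.06 and 5.53 on the construct arrays, against 8.17 in the control, a fall of 2.25 ± 0.28 on the log2 scale (limma adjusted p = 0.0079). DDIT4, an inhibitor of mTOR signalling that stress induces, read 7.78, 7.83 and 8.31, against 9.46 in the control, and fell by 1.48 ± 0.21 (adjusted p = 0.0119). These are the 2 falls among 22 measured stress and p53 responsive genes, a list with 0 rises and a median change of −0.12.

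EPYC, a small proteoglycan of the matrix, read 7.47, 8.09 and 7.81 on the construct arrays, against 9.68 in the control, and fell by 1.89 ± 0.21 on the log2 scale (limma adjusted p = 0.0037). ZNF423, a zinc finger transcription factor, read 5.13, 4.81 and 5.20 on the construct arrays, all under background, against 6.76 in the control. Its fitted change was −1.72 ± 0.29 (adjusted p = 0.0377), a fall of at least 2.52-fold, and without the miR200c141 1:5 array it no longer passed (adjusted p = 0.0639). ZC3H6, a CCCH zinc finger protein, fell by 1.77 ± 0.29 (adjusted p = 0.0305), with 1 of 3 construct arrays above background. GUSBP3, a pseudogene that shares sequence with other copies of GUSB, fell by 1.48 ± 0.24 (adjusted p = 0.0263), and its signal may come from several copies. The other large shared decreases, MMP1, SHISAL1, PRELID2, FBLN1, STON1 and FBXO43, did not pass (adjusted p = 0.0605 to 0.1036), and their construct arrays were at background too. MMP1, interstitial collagenase, read 3.36, 4.30 and 4.39, against 6.02 in the control.

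Mesenchymal and matrix genes were the counterpart of the epithelial lists. Of 36 measured, 0 rose and 0 fell in the fit, 23 changes were negative, and the median was −0.15. Only 14 of the 36 were above background on some HUTU-80 array. Over all 19774 genes, 9560 changes were negative. VIM, the mesenchymal intermediate filament, read 12.06, 11.80 and 12.07 on the construct arrays, against 12.21 in the control (−0.23 ± 0.11, limma adjusted p = 0.6124). COL1A1, a fibrillar collagen, changed by −1.16 ± 0.29 (adjusted p = 0.1806), while CDH11, a mesenchymal cadherin, changed by 1.13 ± 0.22 (adjusted p = 0.069). A second COL1A1 probe set above background gave −0.14. CDH11 passed with only genes above background tested (adjusted p = 0.0348), as a rise.

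The remaining lists gave no call in this fit. Of 19 TGF-beta and Hippo responsive genes, 0 passed, with TGFB2 at −0.75 (limma adjusted p = 0.0555) and ANKRD1 at 0.68 (adjusted p = 0.0837) the largest changes. Of 33 interferon-stimulated genes, which can mark a response to a virus, 0 passed and the median was −0.04, and RIGI and OAS3 changed by −0.57 and −0.41. Among 22 intestinal identity genes only GATA6, an endoderm transcription factor, was above background, at 8.57, 8.55 and 9.08 on the construct arrays, against 8.06 in the control (0.67, adjusted p = 0.3212). Immune (9 measured) and endothelial (8 measured) markers had 0 members above background and median changes of −0.04 and 0.04. For all lists, the counts are set beside the shares of all genes given above, and no test of a list was made.

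**Figure D2:**
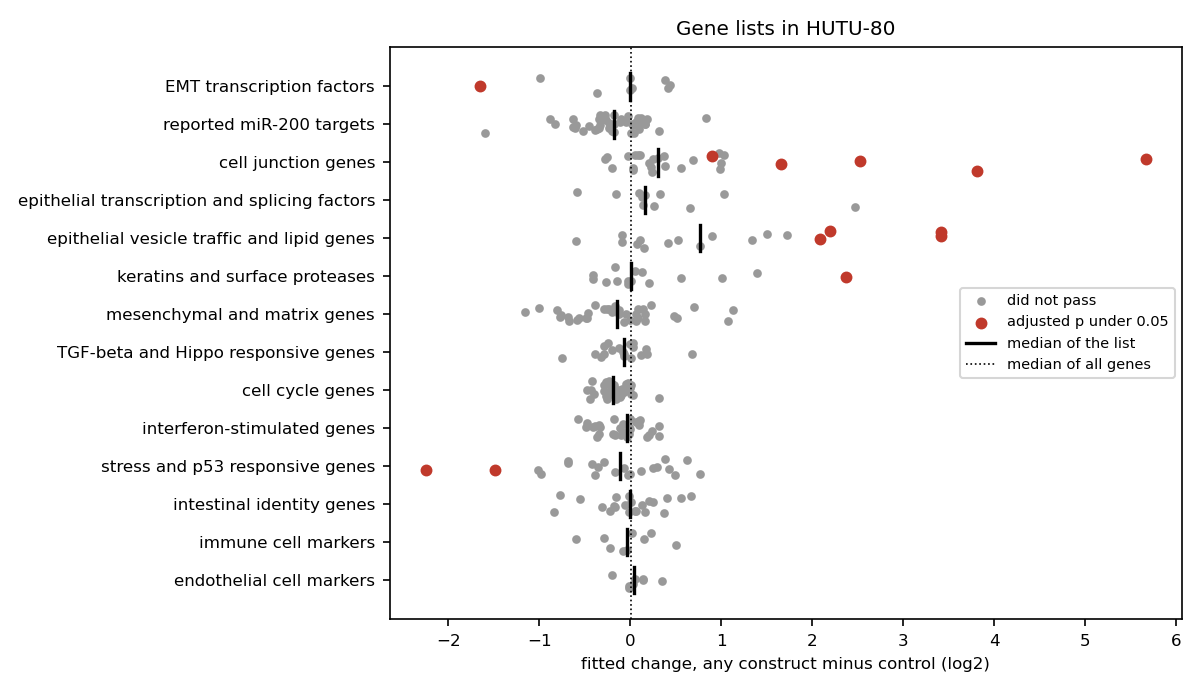
Fitted change of any construct against the control (x axis, log2) for each measured member of 14 gene lists in HUTU-80, with 1 point per gene. Red points passed the limma test over all genes at an adjusted p under 0.05, black bars are list medians and the dotted line is the median of all genes; the red points to the right are junction, vesicle and lipid genes and KRT8, and those to the left are ZEB1, CHAC1 and DDIT4.

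Promoter sequence was examined because ZEB1 is known to bind the E-box CACCTG. The letters CACCTG on either strand (CACCTG or CAGGTG) were searched from 250 bases before to 50 after the start of each gene, in RefSeq promoters on GRCh38.p14. Of the 54 shared rises, 42 had a promoter in the table and 18 of these held the motif (42.9%). Of the 19 shared falls, 13 had one and 4 held it (30.8%), and of all measured genes 15399 had one and 3019 held it (19.6%). This is a description of letters, without a test, and says nothing of binding. ELOVL7 and CDS1 are shown as rises with a match, VAMP8 as a rise without one. Sequences run 5′ to 3′ along the gene's strand, and capitals mark the motif.
ELOVL7: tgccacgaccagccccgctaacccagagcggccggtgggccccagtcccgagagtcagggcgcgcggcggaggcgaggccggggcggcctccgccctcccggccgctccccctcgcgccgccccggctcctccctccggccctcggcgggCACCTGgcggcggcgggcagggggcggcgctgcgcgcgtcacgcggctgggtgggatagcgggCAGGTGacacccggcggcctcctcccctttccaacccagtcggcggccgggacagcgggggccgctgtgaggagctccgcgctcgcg
CDS1: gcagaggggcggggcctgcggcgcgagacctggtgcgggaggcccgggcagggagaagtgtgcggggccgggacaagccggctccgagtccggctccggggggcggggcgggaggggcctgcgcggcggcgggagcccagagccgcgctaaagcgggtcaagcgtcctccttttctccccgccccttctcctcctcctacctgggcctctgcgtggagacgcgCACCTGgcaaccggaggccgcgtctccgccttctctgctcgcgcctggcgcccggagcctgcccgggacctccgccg
VAMP8: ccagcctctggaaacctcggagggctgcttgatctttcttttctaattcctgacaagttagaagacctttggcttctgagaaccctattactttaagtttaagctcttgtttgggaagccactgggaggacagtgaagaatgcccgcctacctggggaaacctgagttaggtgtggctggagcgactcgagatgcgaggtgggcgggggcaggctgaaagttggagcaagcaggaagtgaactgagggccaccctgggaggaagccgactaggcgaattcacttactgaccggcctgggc
The ELOVL7 window is chr5:60844220-60844519 on the minus strand, with matches that begin at −100 and −37 relative to the start. The CDS1 window is chr4:84582877-84583176 on the plus strand, with 1 match that begins at −27. The VAMP8 window is chr2:85577336-85577635 on the plus strand, and 0 matches lie in it. The ranges of these 3 genes' changes on the construct arrays were 3.13 to 3.64 for ELOVL7, 1.78 to 2.45 for CDS1 and 2.78 to 3.75 for VAMP8.

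The second comparison asks what set the constructs apart. Cells with miR200c141 had more RNA of OVOL2, BSPRY and EPCAM and less of ZEB1 than cells with miR200ba429. Cells with miR200ba429 had more RNA of FLRT3, DPYSL4, ETS1, HMOX1, CALD1, COL12A1 and the histone gene H3C2. In the limma fit of the miR200c141 pair minus the miR200ba429 array, 96 genes passed (0.485% of 19774), 22 higher with miR200c141 (0.111%) and 74 lower (0.374%). For 9 of the 74, all 3 construct arrays were at background, so no difference was measured for them. With the brighter side above background, both miR200c141 arrays were at least 1 log2 unit above the miR200ba429 array for 6 genes (0.0303%) and below it for 29 (0.147%). This fit rests on 1 array of miR200ba429 and 1 residual degree of freedom from the pair. Quantile normalization over the HUTU-80 arrays left 6 calls, and the mean of all probe sets or a fit without the variance trend left 0, with the cause not tested.

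OVOL2 stood apart most among the genes higher with miR200c141. It read 6.88 and 6.87 on the miR200c141 arrays, against 5.21 on the miR200ba429 array, which was under background, with the control at 3.84. The difference was 1.67 ± 0.29 (limma adjusted p = 0.0167), at least 2.72-fold, and the pair differed from each other by far less than from the miR200ba429 array. EPCAM differed by 1.22 ± 0.15 (adjusted p = 0.0013) or 2.33-fold, and BSPRY, at 7.20 and 6.79 against 5.63, by 1.37 ± 0.30 (adjusted p = 0.0482). VAMP8 differed by 0.96 ± 0.25 and did not pass (adjusted p = 0.1409). KRT8, ELOVL7, ITGA2 and CXADR, in contrast, differed between the constructs by −0.34 to −0.02, which did not pass. ZEB1 was lower with miR200c141 by 0.79 ± 0.14 on the log2 scale (adjusted p = 0.0215).

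For other genes chosen by their gap, MGAT3, ORC1 and C10orf95-AS1, the miR200ba429 array stood below the control as well. MGAT3, a glycosyltransferase that bisects N-glycans, read 6.41 and 6.03 with miR200c141, against 5.00 with miR200ba429, and the control was at 6.44 (1.22, adjusted p = 0.071). ORC1, a subunit of the origin recognition complex, read 6.56 and 6.45, against 5.52, with the control at 6.35 (0.98, adjusted p = 0.1352). C10orf95-AS1, an antisense RNA, read 6.58 and 6.76, against 5.48, with the control at 6.08, and passed (1.19 ± 0.26, limma adjusted p = 0.0461). For NTF4, a neurotrophin, the miR200c141 pair stood high instead, at 6.09 and 5.58 against 4.34, with the control at 3.99 (1.49, adjusted p = 0.0608).

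**Figure D3:**
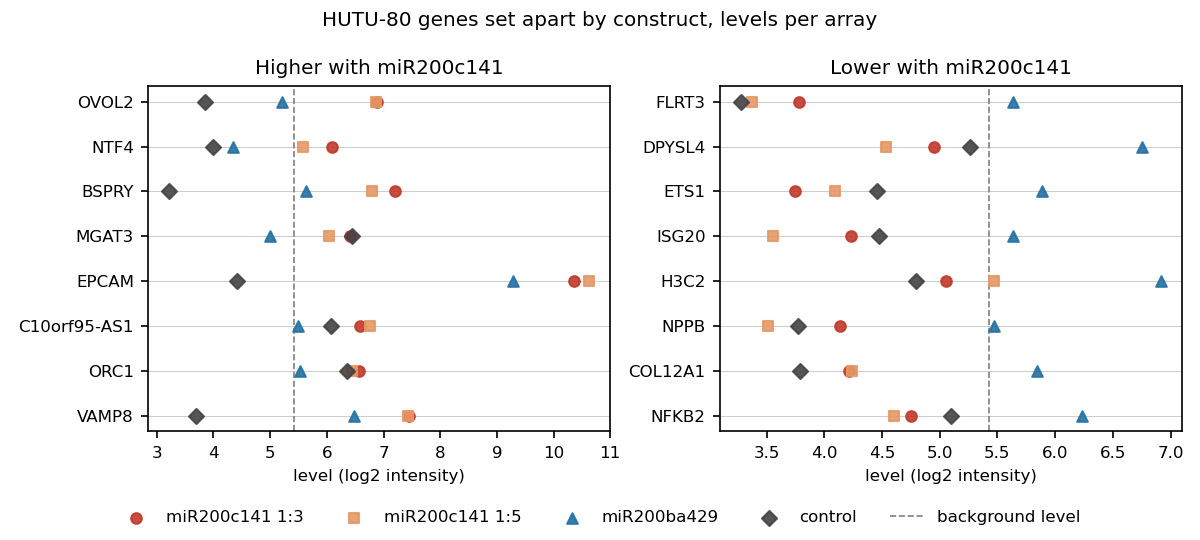
Levels (x axis, log2 intensity) on each HUTU-80 array of the 8 genes higher (left) and the 8 lower (right) with miR200c141 than with miR200ba429 by the largest gap to the nearer miR200c141 array, with the brighter side above background and the gap at least 2 times the difference within the pair. Points are single arrays and the dashed line is the background level of 5.43. On the right, the miR200ba429 array lies above the miR200c141 pair, as the choice of these genes requires. The control, left free by that choice, lies beside the pair or between it and the miR200ba429 array for all 8 genes.

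The 8 genes chosen as lower with miR200c141 lie above the pair on the miR200ba429 array by the rule of choice. The control, which the rule leaves free, was also under the miR200ba429 array for all 8. FLRT3, a membrane protein of cell adhesion and guidance, read 3.78 and 3.38 with miR200c141, against 5.63 with miR200ba429, with the control at 3.28. The difference was −2.05 ± 0.32 (limma adjusted p = 0.0112), but with the pair at background the measured bound is 1.15-fold. DPYSL4, of a family of cytoskeletal proteins, read 4.95 and 4.53, against 6.75, with the control at 5.26 (−2.01 ± 0.32, adjusted p = 0.0114, at least 2.50-fold lower). ETS1, a transcription factor on the list of reported miR-200 targets, read 3.75 and 4.09, against 5.88, with the control at 4.45 (−1.97 ± 0.33, adjusted p = 0.0167, at least 1.37-fold lower). For the next 4 genes the pair was again under background, so the measured sizes are bounds. COL12A1, a fibril-associated collagen, read 4.22 and 4.24, against 5.85 (adjusted p = 0.0325, at least 1.34-fold lower). NFKB2, an NF-kappa-B subunit, averaged 4.67 over the pair, against 6.23 (adjusted p = 0.0328, at least 1.74-fold lower). ISG20, an interferon-induced exonuclease, read 4.23 and 3.55, against 5.63 (adjusted p = 0.0325, at least 1.15-fold lower). NPPB, a natriuretic peptide, read 4.14 and 3.51, against 5.47 (adjusted p = 0.0373, at least 1.03-fold lower). ISG20 was the 1 call among 33 measured interferon-stimulated genes, of which 22 were higher with miR200c141, beside 9955 of all 19774 genes. The median difference of that list was 0.20. Its median changes against the control were −0.15 and 0.02 with miR200c141 1:3 and 1:5, and −0.29 with miR200ba429. Only 13 of its members were above background on any HUTU-80 array. H3C2, a replication-dependent histone H3 gene, read 5.05 and 5.47, against 6.92, with the control at 4.80 (−1.65 ± 0.31, adjusted p = 0.0237).

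In the gene lists, 3 of 36 mesenchymal and matrix genes were lower with miR200c141 and 0 were higher. They are CALD1 (8.13 and 7.82 against 9.20, −1.23), ACTA2 (5.80 and 5.12 against 7.04, −1.58) and COL3A1 (7.77 and 7.38 against 8.45, −0.88), a smooth-muscle type actin and its regulator and a fibrillar collagen. For CALD1 and ACTA2 the control, at 7.31 and 5.29, was closer to the miR200c141 pair, while for COL3A1 it was highest at 8.86. Of 22 stress and p53 responsive genes, 4 were lower with miR200c141 (HMOX1, ATF3, TP53I3 and ZMAT3) and 0 higher. HMOX1, haem oxygenase, read 9.31 and 9.10, against 10.25, with the control at 9.56 (−1.05, limma adjusted p = 0.0013). WWTR1, the Hippo effector TAZ, was the 1 of 19 TGF-beta and Hippo responsive genes that passed, at 9.42 and 9.77 against 10.28 (−0.69, adjusted p = 0.0325), with the control at 10.14.

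Of the cell cycle genes, 1 was higher with miR200c141 and 0 lower. Their median changes against the control were −0.13 and −0.07 with miR200c141 1:3 and 1:5, and −0.38 with miR200ba429, and 33 of 36 measured members were higher with miR200c141 than with miR200ba429 by a median of 0.24. Over all genes the median difference was 0.00, and 9955 of 19774 were higher with miR200c141. Only MCM2, a subunit of the replicative helicase, passed by itself, at 10.61 and 10.61 against 10.08, with the control at 10.65 (0.53, limma adjusted p = 0.039). MKI67, a proliferation marker picked after its values were seen, read 9.38 and 9.40, against 8.91, with the control at 9.63 (0.48, adjusted p = 0.1451). KIF20A and TTK, mitotic genes, were lower than control on all 3 construct arrays, by −0.48 and −0.44 in the fit of any construct, and did not pass (adjusted p = 0.1927 and 0.4605).

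**Figure D4:**
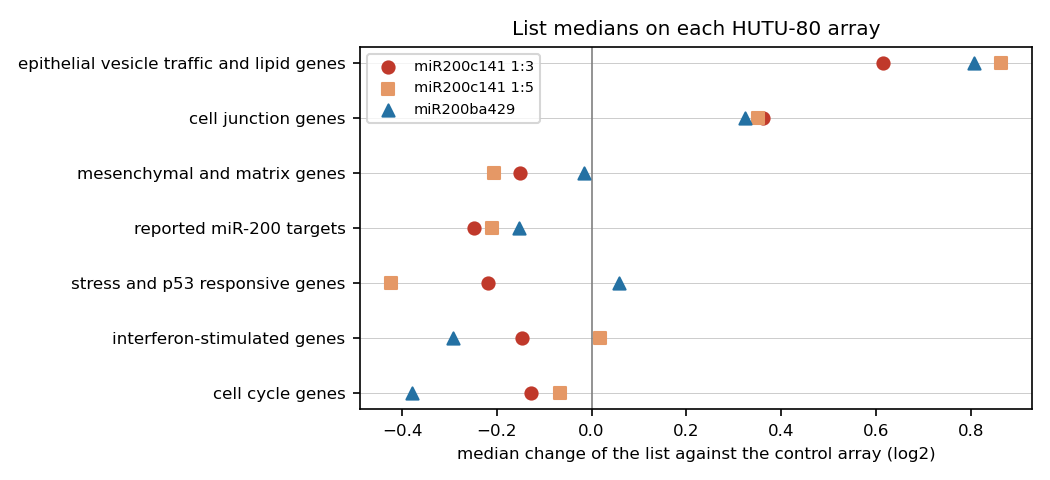
Median change against the control (x axis, log2) of 7 gene lists on each of the 3 HUTU-80 construct arrays, 1 point per array. Junction and vesicle lists lie to the right on all 3 arrays, while the cell cycle median is −0.38 with miR200ba429 and −0.13 and −0.07 with miR200c141, and the stress list is 0.06 with miR200ba429 and −0.22 and −0.42 with miR200c141.

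The arrays of the same construct give only a rough scale for these gaps, since the ratios in their titles differ. Counts within the pair are of 1 array against 1 array. The 6 and 29 genes between the constructs required both miR200c141 arrays to lie apart. Counts between the constructs with 1 array of the pair left out are given further on. Between miR200c141 1:3 and 1:5, 3 genes were at least 1 log2 unit higher on the 1:3 array (0.0152%) and 13 lower (0.0657%) with the brighter array above background, with no test since each is 1 array. Genes higher on the 1:3 array were SLFN5 (5.79 and 4.48), ZNF540 (6.09 and 4.85) and HINT3 (7.14 and 5.99). Those lower on it with the largest gaps were IFIT1, an interferon-induced antiviral gene (4.30 and 6.40), KHDC1 (4.43 and 6.24) and LNC-LBCS (4.05 and 5.61). IFIT1 read 5.19 in the control and 4.87 with miR200ba429, so the 1:5 array alone was above background. HINT3 was 8.34 with miR200ba429 and 6.24 in the control, and its call between the constructs (adjusted p = 0.0215) came with a gap of 1.15 between the miR200c141 arrays. Each construct array had its own count of changes of at least 1 log2 unit against the control with the brighter array above background, 115 up and 89 down with miR200c141 1:3, 84 up and 41 down with 1:5, and 185 up and 78 down with miR200ba429.

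The last comparison asks whether HUTU-80 responded differently from the other lines, MDST8 and NCI-H716, each with 1 array per single construct and 1 control. Only 2 genes had a change in HUTU-80 that differed from the mean change of the other lines in the limma fit, both higher in HUTU-80 (0.0101% of 19774), and 0 were lower, beside 1073 genes at an unadjusted p under 0.05. ITGA2, the collagen-binding integrin alpha 2, read 7.16 and 6.86 with miR200c141 and 7.06 with miR200ba429, against 4.87 in the HUTU-80 control. In MDST8 it read 10.37 and 10.57 with the constructs, against 11.13 in the control, and in NCI-H716 10.03 and 10.23, against 9.93. The change was 2.16 in HUTU-80 with the pair averaged, against −0.67 in MDST8 and 0.21 in NCI-H716, a difference of 2.39 ± 0.20 (adjusted p = 0.0067). HUTU-80 thus began from a level under background and did not reach that of the other lines. A second ITGA2 probe set above background changed by 0.79 in HUTU-80.

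MYO6, a motor protein that moves towards the minus end of actin filaments, read 9.04 and 8.50 with miR200c141 and 9.01 with miR200ba429, against 6.92 in the HUTU-80 control. In MDST8 it read 8.86 and 8.61 with the constructs, against 8.36 in the control, and in NCI-H716 10.49 and 10.27, against 10.81. Its change was 1.97 in HUTU-80, against 0.37 in MDST8 and −0.43 in NCI-H716, a difference of 2.00 ± 0.22 (limma adjusted p = 0.042). For MYO6 too, HUTU-80 thus began from a lower level than the other lines. Both calls ended with the mean of all probe sets or with no variance trend (adjusted p = 0.1836 to 0.2629), and without NCI-H716 (adjusted p = 0.0549 for ITGA2 and 0.3459 for MYO6). The ITGA2 call also ended without MDST8 (adjusted p = 0.0554), and that of MYO6 ended when arrays with both clusters were included (adjusted p = 0.2125), with only genes above background (0.0776) and with quantile normalization (0.0505).

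EPCAM changed by 5.47 in HUTU-80 with the pair averaged, against −0.18 in MDST8, where it stayed under background, and 2.61 in NCI-H716, where the control was already at 9.29. The difference of 4.25 ± 0.51 did not pass (limma adjusted p = 0.0698), and it passed with the miR200c141 pair as separate samples (adjusted p = 0.0144). VAMP8 changed by 2.77 and 4.22 in MDST8 and NCI-H716, and CDH1 by 0.25 and 3.57. For both, the difference of HUTU-80 from the other lines did not pass (−0.24 and 0.50). The MDST8 mean for VAMP8 joins unlike constructs, 8.29 with miR200c141 and 3.14, under background, with miR200ba429, against 2.95 in the control. The SE of the VAMP8 difference was 1.84, so not passing does not show that the lines are alike. For ZEB1 in MDST8, miR200c141 read 7.94 and miR200ba429 9.26, against 9.39 in the control. ZEB1 changed by −1.52 in HUTU-80, against −0.79 in MDST8 and −1.50 in NCI-H716 (adjusted p = 0.9819 for the difference). CHAC1, EPYC and ZNF423 changed by −2.35 to −1.68 in HUTU-80 and by −0.34 to 0.25 in the other lines, without passing (adjusted p = 0.2811 to 0.2907). CHAC1, EPYC and ZNF423 were under background on all arrays of the other lines, so a fall could not have been measured there.

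**Figure D5:**
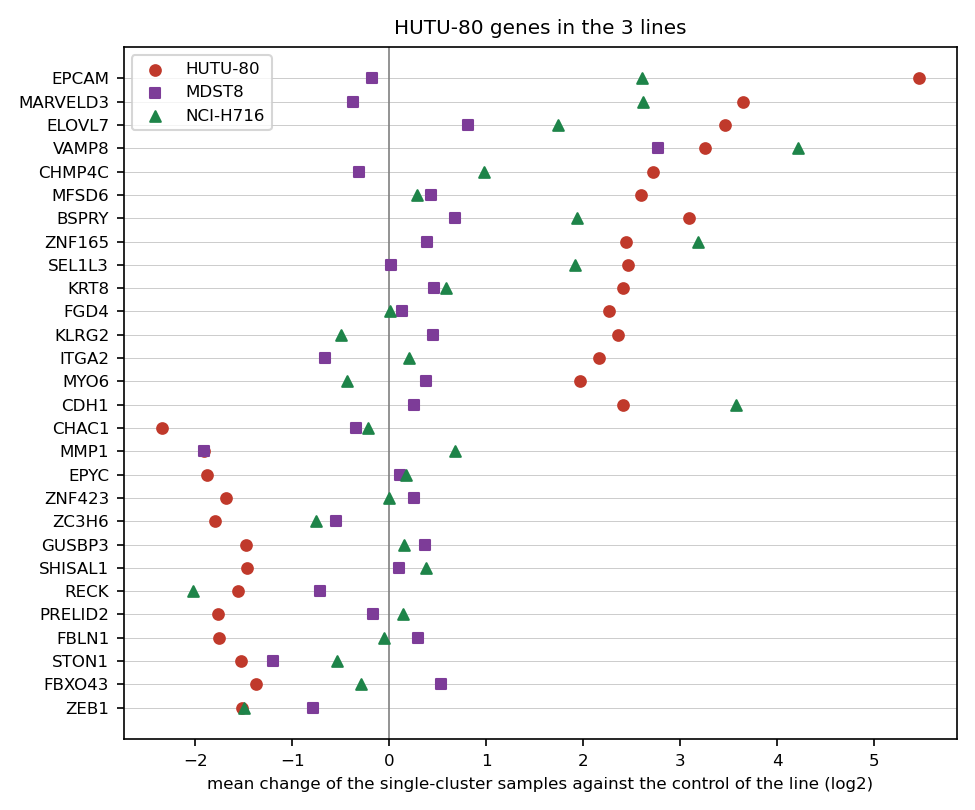
Mean change of the single-construct samples against the control of the same line (x axis, log2) in HUTU-80, MDST8 and NCI-H716 for the largest shared rises and falls of HUTU-80, with ITGA2, MYO6, CDH1 and ZEB1 added. Each point is the mean of 2 samples against 1 control, with the miR200c141 pair of HUTU-80 averaged. HUTU-80 lies apart from both other lines for ITGA2 and MYO6, whose differences passed the test. It also lies apart for other genes, such as CHMP4C, FGD4, KRT8 and MFSD6, whose differences did not pass. For VAMP8 and ZEB1 it lies between or beside the other lines.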

How the data were processed

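Each array was deposited as 1 log2 intensity for every probe set, which the authors had normalized with RMA, per the submitters' processing notes. The version and settings of RMA are unstated in those notes as seen here. Of 54715 probe sets, 102 were array controls, 40914 had 1 gene symbol, 864 several and 12835 none in the platform annotation. For each gene the probe set that was brightest over the arrays was used, which gave 19774 genes, 10550 of them with several probe sets. Changes were fitted with limma 3.58.1 in R 4.3.3 (lmFit, contrasts and eBayes with a variance trend), with p-values adjusted by Benjamini-Hochberg over all genes. The comparisons were the 3 construct arrays against 1 control, the miR200c141 pair against 1 miR200ba429 array, and the change in HUTU-80 against that in the other lines (9 samples, the pair averaged). The fits were tested on simulated data, in which every array, the lone control included, was given the spread of the miR200c141 pair. No gap between constructs was set there for the fit of any construct. Those data therefore cannot show whether the lone arrays vary like the pair. Intensities have no read depth, and the number of arrays limits the precision. Members, gene lists and rules for naming genes were chosen with earlier results of these data known. The rules name set genes (such as ZEB1 and EPCAM), the 12 largest shared changes each way, 8 each way between constructs, 3 each way between the arrays titled 1:3 and 1:5, calls between lines, and called list members. Other genes were named after their values were seen.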

Additional observations from a re-analysis of the deposited data

Results flagged for a closer look

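The change of ITGA2, an integrin subunit, differed between HUTU-80 and the other lines by 2.39 on the log2 scale, with the difference itself tested as an interaction contrast in limma (adjusted p = 0.0067). MYO6, an actin motor, differed by 2.00 in the same test (adjusted p = 0.042). Both were higher in HUTU-80, on 3 of 3 construct arrays against the control. Both calls ended with the mean of all probe sets, with no variance trend and without NCI-H716 (0 genes called in each).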

How the results depend on the processing

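With 1 control array, the counts of calls moved strongly with the fit. For any construct against the control, 46 rises and 13 falls became 10 and 0 when a gene's probe sets were averaged, 70 and 32 with only genes above background, 2 and 0 with no variance trend, and 82 and 51 with the miR200c141 pair averaged. Leaving out 1 construct array gave 54 to 138 rises and 23 to 126 falls. Genes changed the same way on all 3 arrays, 54 up and 19 down, became 25 and 11 with the mean of probe sets, 140 and 98 at 1.5-fold and 12 and 0 at 2 log2 units, and leaving out an array gave 57 to 77 up and 21 to 33 down. Of the 59 calls, 58 were shared under quantile normalization, 58 with only genes above background, and 51 without the miR200c141 1:5 array. Between the constructs, 22 higher and 74 lower became 0 and 0 with the mean of probe sets, 1 and 5 under quantile normalization and 0 and 0 with no trend. Genes 1 log2 unit apart, 6 higher and 29 lower, became 3 and 9 with the mean, 66 and 149 at 1.5-fold, 0 and 0 at 2 log2 units, and 14 to 27 higher and 58 to 76 lower without 1 array of the pair, which leaves no residual degrees of freedom for a test. Between lines, 2 genes higher in HUTU-80 became 0 with the mean, with no trend and without NCI-H716, 1 with quantile normalization, with only genes above background and with arrays of both clusters, and 4 with the pair as separate samples. The count of 0 lower genes became 3 without MDST8, and leaving out a line gave 0 to 2 higher and 0 to 3 lower. With the mean of probe sets, 3 genes higher on the 1:3 array became 0. List medians moved to −0.10 for reported miR-200 targets, 0.32 for junction genes, 0.49 for vesicle and lipid genes and −0.061 for intestinal genes with the mean. Under quantile normalization junction genes had 0.28 and intestinal genes −0.03, with the pair averaged junction genes had 0.33, and with the probe set brightest over HUTU-80 immune markers had 0.015. ESRP1, at background, reversed to −0.081 with the mean. The causes were not tested, except that fewer arrays or genes enter some fits. No paired analysis was possible because the labels give no replicate numbers shared between the groups. Low signal limits the changes of genes at background to bounds.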

Other observations

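Replication-dependent histone genes, a group picked after its values were seen, stood higher with miR200ba429. Of 60 measured, 22 were above background, and of these 22 the miR200ba429 array was above both miR200c141 arrays for 19 and below both for 2. In the limma fit between the constructs, 8 were lower with miR200c141 and 0 were higher, with a median difference of −0.66 among those above background. Of all 19774 genes, 0.374% were called lower and 0.111% higher in that fit. The difference was negative for 9819 of all genes, and its median over them was 0.00. H1-2, a linker histone, read 10.03 and 9.73 with miR200c141, against 11.10 with miR200ba429, with the control at 9.63 (−1.22, adjusted p = 0.000623). H2BC8 read 9.18 and 8.54, against 9.92, with the control at 7.79 (−1.06, adjusted p = 0.0215). Median changes against the control were 0.55 and 0.27 on the miR200c141 1:3 and 1:5 arrays and 1.21 on the miR200ba429 array. Probe sets of histone genes can match several of these near-identical genes.

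Genes known as targets of ATF4, the transcription factor of the amino acid response, were also looked at after their values were seen. ATF4 itself read 11.10, 11.07 and 10.90 on the construct arrays, against 11.65 in the control, and fell by 0.62 (limma adjusted p = 0.0434). DDIT3 (−0.98, adjusted p = 0.0555), TRIB3 (−1.01, adjusted p = 0.1927) and ASNS (−0.69, adjusted p = 0.0829) were lower on all 3 construct arrays and did not pass. PCK2, a mitochondrial carboxykinase, read 7.88 and 8.17 with miR200c141, against 7.11 with miR200ba429, with the control at 8.58 (0.91, limma adjusted p = 0.0253). AARS1, an aminoacyl-tRNA synthetase, read 9.095 and 8.95, against 8.275, with the control at 9.38 (0.75, adjusted p = 0.0231). Both were thus under the control on all 3 construct arrays. Between the constructs CHAC1 differed the same way (0.59, adjusted p = 0.4682). The stress genes ATF3 (−0.84, adjusted p = 0.0461) and DDIT4 (−0.51, adjusted p = 0.2143) differed the other way.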
